A study of Mus musculus with 12 samples.

Results

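The transcriptional response to cortisol plus serotonin was followed in 3T3L-1 cells, a mouse embryonic fibroblast line that can turn into fat cells and that served as pre-adipocytes, while they shared their medium with Raw264.7 macrophages. The comparison rests on 6 of the 12 arrays of the series, the 3 titled CS100 (CS, cortisol and serotonin at 100 µM each) and the 3 titled NT (no treatment), taken in pairs at 6, 24 and 48 h. The remaining 6 arrays, of cells given cortisol (C) or serotonin (S) alone at 100 µM, entered through the normalisation, the filter on dim probes, the estimate of the spread and the comparison of CS with C. The hormone stocks held DMSO, and whether NT cells received it is not given in the sources used here. The medium was renewed with fresh hormone after 24 h. The macrophages sat in an insert whose pores let soluble factors but not cells through, so that the RNA came from the lower well that held the 3T3L-1 cells. On each array the co-cultured cells were labelled with Cy5 (red), and 3T3L-1 cells kept without macrophages, at the same treatment and time, with Cy3 (green). There was 1 array for each treatment and time, and the labels give no separate cultures within a time. The 3 times therefore stand in for replicates, and the error is the departure of the arrays from an additive effect of time and treatment.

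Cortisol is a glucocorticoid. It enters cells and binds the glucocorticoid receptor, which moves to the nucleus, raises the transcription of some genes by binding DNA and lowers that of many inflammatory genes by interfering with the factors AP-1 and NF-κB. Glucocorticoids are part of the usual hormone mix that starts fat cell differentiation of 3T3L-1 cells in culture. Serotonin acts through membrane receptors and is removed by its transporter and by monoamine oxidase.

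Levels are given as log2 of the red processed signal after quantile normalisation between arrays, and differences as log2 CS minus NT. A gene was called at an adjusted p under 0.05 (limma, Benjamini-Hochberg over all genes) together with a change of at least 1.5-fold. Between 20642 and 22647 probes were well above background in red on the CS arrays, against 19989 to 21976 on the NT arrays. The NT array at 6 h had a median red processed signal of 75.1, where the other 11 arrays ranged between 29.1 and 49.2. The differences at 6 h were also the widest, with an SD over genes of 0.844, against 0.501 at 24 h and 0.653 at 48 h. Each time was hybridised on its own slide, with CS always at position 4 and NT always at position 1, so that treatment and slide position cannot be told apart, and neither can time and slide. Of 22 measured fibroblast and pre-adipocyte markers none was called, and 19 of the 23 listed were well above background on all 6 CS and NT arrays. Of the mature adipocyte markers only 5 of 12 were measured, and the probes for Adipoq, Plin1, Retn and Pck1 were not well above background on any CS or NT array.

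The labels of the cells alone were in doubt on some arrays. In cells alone, Zbtb16, a transcription factor that glucocorticoids induce, had levels of 10.85, 8.40 and 10.76 on the arrays labelled CS at 6, 24 and 48 h, against 7.73, 7.98 and 7.38 on those labelled NT. The green RNA labelled CS at 24 h thus lay near untreated cells, while the green RNA labelled S was high for Zbtb16 at 6 h (9.99) and 24 h (10.01) and low at 48 h (7.68). In the red channel, which carries the co-cultured cells described here, the CS array at 24 h was as high as the other CS arrays.

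In co-cultured cells 507 of 13719 genes (3.7%) were called between CS and NT arrays, 373 higher (2.72%) and 134 lower (0.977%). An unadjusted p under 0.05 was found for 3427 genes (25%). The part of slide position in these differences cannot be told apart from that of the hormones. Of the called genes, 357 higher and 133 lower ones had the same direction at all 3 times. Of 31 measured genes known to be induced by glucocorticoids 12 rose and none fell. Of 33 measured members of the list of cytokines and chemokines 4 fell (Il6, Il11, Csf2 and Ccl5), with a list median of -0.07. Cytokines and chemokines off the list went both ways. Of 13 measured metalloproteinase genes 3 fell (Mmp10, Mmp9 and Mmp1b). No gene was called between CS and cortisol alone. The count of called genes rested on single arrays: it was 162 without the CS array at 24 h, 273 without the CS array at 6 h, 317 without the NT array at 6 h, 302 without the NT array at 24 h, and between 456 and 736 without either array at 48 h. It was 8 with only the 6 CS and NT arrays fitted, 3 with no term for time, and 7 without the 3 arrays whose cells alone went against their label, and the co-cultured channel of those arrays was left out with them. The median difference of all genes was -0.02.

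Glucocorticoid-induced genes had the largest share of called genes among the 20 gene lists. Of 34 listed genes 31 were measured, 12 were higher and none was lower (38.7% called, against 3.7% of all genes), with a median difference of 0.70, against -0.02 over all genes. The list median was 0.77, 0.70 and 0.39 for the pairs at 6, 24 and 48 h. Without the CS array at 24 h 6 of the 31 were called, without the 4 arrays at 6 h 5 were called, and without the 3 arrays of doubtful label 1 was called. The list names known targets and was chosen with results of these data in view, so that its direction is a description.

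Zbtb16 stood at 10.29, 10.09 and 10.50 on the CS arrays at 6, 24 and 48 h, against 7.41, 7.47 and 7.96 on the NT arrays. Every CS value lay above every NT value, and the pairs differed by 2.88, 2.62 and 2.54. The fitted difference was 2.68 ± 0.25 (SE, 3 pairs; adjusted p = 0.00237), a 6.4-fold rise, and Zbtb16 was called under each of the 21 alternatives that were run gene by gene. Fkbp5, a co-chaperone that holds the glucocorticoid receptor in a state of low affinity, had levels of 13.14, 13.40 and 13.44 in CS cells, against 12.03, 12.70 and 12.49 in NT cells. All CS values exceeded all NT values (0.92 ± 0.10, adjusted p = 0.00277). Tsc22d3, which encodes the glucocorticoid-induced leucine zipper that restrains AP-1 and NF-κB, reached 13.90, 14.02 and 13.80 in CS cells, against 12.83, 13.16 and 13.19 in NT cells. It too did not overlap between the groups (0.85 ± 0.16, adjusted p = 0.0177).

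Other members act in signalling and metabolism. Dusp1, a phosphatase that switches off MAP kinases, had 13.90, 13.12 and 13.83 in CS cells, against 13.04, 12.35 and 13.18 in NT cells. The groups overlapped, with both low at 24 h, but CS was higher at each time (0.76 ± 0.12, adjusted p = 0.00935). Pdk4, the kinase that turns off pyruvate dehydrogenase, was at 10.45, 10.67 and 12.64 in CS cells, against 9.39, 9.46 and 11.60 in NT cells. Both groups were highest at 48 h and the pairs differed by 1.06, 1.21 and 1.05 (fitted 1.11 ± 0.21, adjusted p = 0.0181). Map3k6, a stress kinase, was higher by 1.16 ± 0.18 (adjusted p = 0.00891), and Crispld2, a secreted protein, was 2.83-fold higher (adjusted p = 0.00605). Tns1, a focal adhesion protein, was higher by 0.87 ± 0.09 (adjusted p = 0.00276), and Klf9, a transcription factor, by 0.73 ± 0.11 (adjusted p = 0.00661). Glul, glutamine synthetase, was only 0.25 higher at 6 h and 1.13 and 0.72 higher at 24 and 48 h (0.70 ± 0.18, adjusted p = 0.0481). Mertk, a receptor for the uptake of dying cells, was well above background on 3 CS arrays but on 1 NT array (1.74 ± 0.44, adjusted p = 0.0478). Over the whole list, 10 of 31 members had every CS value above every NT value and 2 of 31 had every CS value below every NT value, against 4.16% and 3.54% of all genes. Of those 10 members 8 were called, a subset chosen for being higher.

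**Figure D1:**
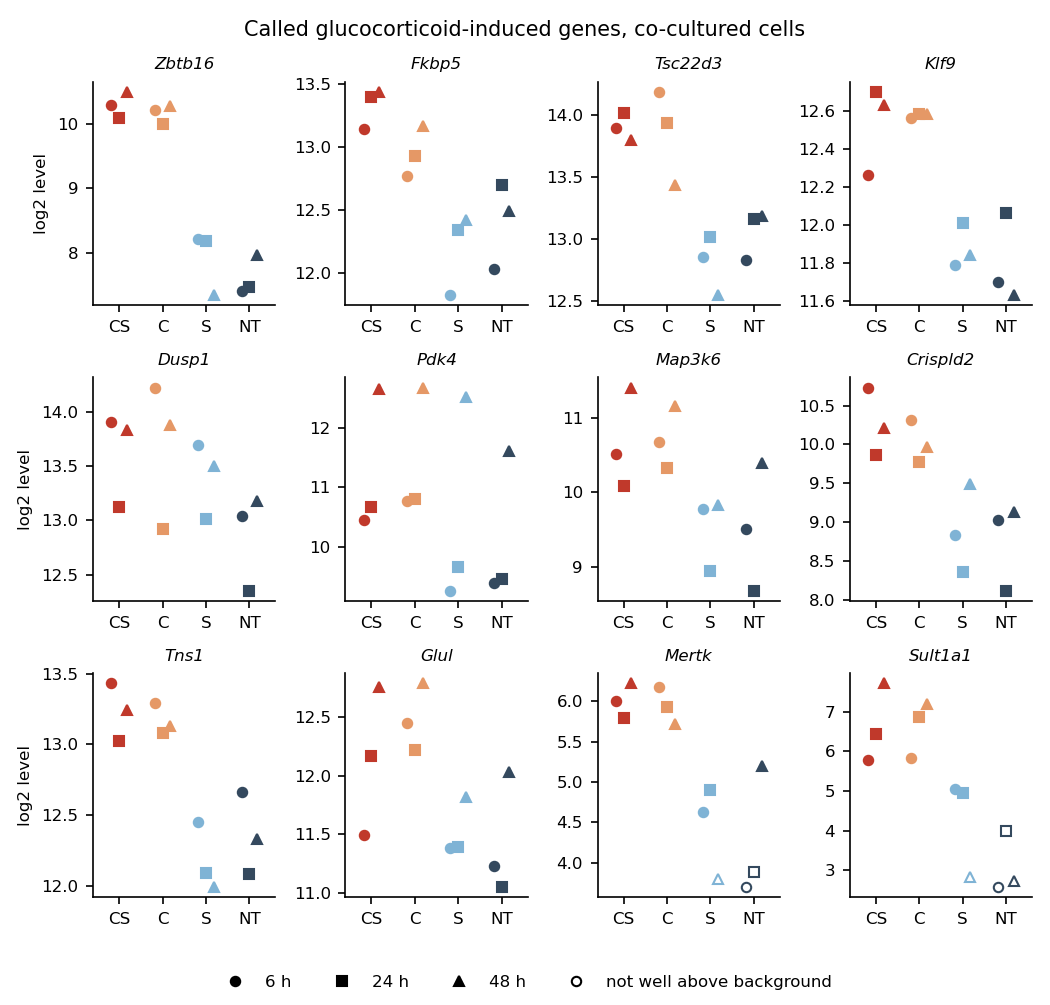
Log2 level (y axis) of the 12 called glucocorticoid-induced genes on each array of co-cultured cells, by treatment (x axis: CS, C, S, NT), with 1 point per array, the time given by its shape and open points not well above background. CS and C arrays sit together above S and NT arrays for Zbtb16 (CS 10.09 to 10.50, NT 7.41 to 7.96), while Pdk4 is high at 48 h in every treatment.

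The promoters of called genes were searched for letters that the receptor binds, in windows of 250 bases before to 50 after the start site (RefSeq, GRCm38.p6), on both strands and with motifs chosen when results were known. The core ACANNNTGT, which reads the same on either strand, was in 28 of 372 promoters of the higher genes (7.53%) and 5 of 125 of the lower genes (4.0%), against 4.41% for all tested genes and 6.85% of all 32851 promoters. The longer full palindrome of the receptor was in 3 of all promoters and in none of those of called genes. A match is a description of the sequence and not a measured site. Among the named genes the core is also in Nlrc3, a lower gene described below, beginning 218 and 157 bases before its start site. The promoters of 3 higher genes are shown so that the cores can be compared, written 5′ to 3′ on the gene's strand with the core in capitals. It begins 179 bases before the start site in Map3k6 (chr4:133240568-133240867, plus strand), 206 bases before it in Trim63 (chr4:134314870-134315169, plus strand), a gene described below, and 25 bases before it in Glul (chr1:153899679-153899978, plus strand).
Map3k6: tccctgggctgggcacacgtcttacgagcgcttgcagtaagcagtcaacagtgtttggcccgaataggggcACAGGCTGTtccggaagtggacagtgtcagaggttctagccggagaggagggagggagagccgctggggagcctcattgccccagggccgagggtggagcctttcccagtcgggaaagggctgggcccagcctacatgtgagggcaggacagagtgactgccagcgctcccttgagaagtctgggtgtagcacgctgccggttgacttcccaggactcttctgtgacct
Trim63: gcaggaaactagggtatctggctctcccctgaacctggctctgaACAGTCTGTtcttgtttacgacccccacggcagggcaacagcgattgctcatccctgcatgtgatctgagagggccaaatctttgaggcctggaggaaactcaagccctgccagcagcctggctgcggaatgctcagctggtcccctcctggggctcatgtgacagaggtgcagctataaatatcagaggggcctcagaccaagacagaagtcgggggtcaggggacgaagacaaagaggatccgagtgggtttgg
Glul: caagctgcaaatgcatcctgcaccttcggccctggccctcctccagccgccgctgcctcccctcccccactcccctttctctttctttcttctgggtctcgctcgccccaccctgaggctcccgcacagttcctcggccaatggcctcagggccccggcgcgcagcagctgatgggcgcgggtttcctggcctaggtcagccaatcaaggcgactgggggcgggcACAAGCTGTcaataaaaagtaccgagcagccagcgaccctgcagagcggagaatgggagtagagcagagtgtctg

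Not all known targets were called. Per1, a clock gene with a classic receptor site, was higher by 1.32, 0.78 and 0.31 at the 3 times but was not called (0.80 ± 0.22, adjusted p = 0.0576). Sgk1, a kinase induced by corticosteroids, passed the test but not the fold threshold (0.53 ± 0.11, adjusted p = 0.0255). The metallothionein genes, which bind zinc and are glucocorticoid targets in many cells, were not higher. Mt1 had 16.80, 16.64 and 17.00 in CS cells and 16.84, 16.75 and 17.14 in NT cells, and Mt2 differed by -0.30 ± 0.07 (adjusted p = 0.047), under 1.5-fold. The 16 measured genes of the receptor and its chaperones and of steroid metabolism held no called gene, with a median of 0.08. Among them Nr3c1, the receptor itself, differed by 0.20 ± 0.09 (adjusted p = 0.178) and Hsd11b1, the enzyme that regenerates active glucocorticoid, by 0.11 ± 0.09 (adjusted p = 0.483).

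**Figure D2:**
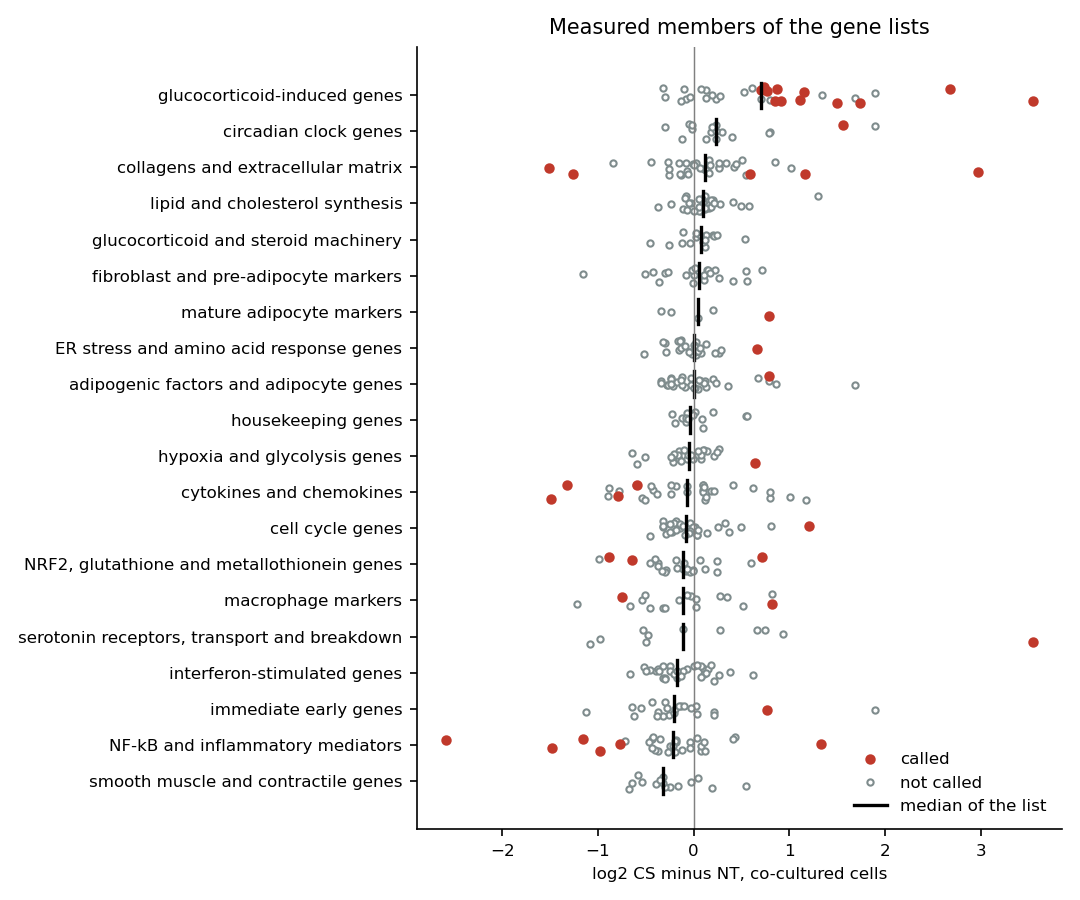
Log2 CS minus NT in co-cultured cells (x axis) of each measured member of the 20 gene lists (rows, ordered by median), with called genes filled and the list median as a black bar. The glucocorticoid-induced list has the highest median (0.70) and 12 called genes, all higher, while the inflammatory mediators have 5 called lower and 1 called higher.

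The 12 highest of all called genes were chosen for their size and for the same direction at all times, which nearly fixes that their groups lie apart. As a description, every CS value lay above every NT value in all 12, where 4.16% of all genes had this. Ear1 and Ear2 encode ribonucleases of the eosinophil-associated family, whose members are close copies that 1 probe may not tell apart. Ear1 was at 7.88, 7.62 and 9.00 in CS cells, where all 3 arrays were well above background, against 2.79, 2.18 and 2.33 in NT cells, where none was. The fitted difference was 5.73 ± 0.62 (adjusted p = 0.00277). With NT values raised at least to the dimmest probe well above background on each array, the rise was 51.3-fold. That fold holds for the processed signal and is not a lower bound. The fitted difference of Ear1 was 2.51 after correction by normexp and loess, which adds a constant to the signal. Ear1 was called in both settings. Ear2 had 9.48, 9.19 and 11.17 in CS cells and 6.57, 5.81 and 7.48 in NT cells (3.33 ± 0.38, adjusted p = 0.00277), a 10.0-fold rise. Of the other measured members of the family Ear10 (adjusted p = 0.0871) and Ear6 (adjusted p = 0.123) were not called.

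Tnfsf11, the ligand RANKL that drives osteoclast formation, had 7.15, 6.96 and 7.12 in CS cells and 2.73, 4.33 and 4.73 in NT cells. It was well above background on no NT array, and the fitted rise was 8.84-fold (adjusted p = 0.00616). Sult1a1, a phenol sulfotransferase that is also a glucocorticoid target, reached 5.78, 6.44 and 7.71 in CS cells, against 2.58, 3.99 and 2.73 in NT cells. Again no NT array was well above background (fitted 11.6-fold, adjusted p = 0.0185). A second Sult1a1 probe that passed the filter differed by 2.40 (adjusted p = 0.0348 over all probes). Col11a1, a minor fibrillar collagen chain, was likewise well above background on no NT array of co-cultured cells (fitted 7.82-fold, adjusted p = 0.00439). Neither was Psg22, a pregnancy-specific glycoprotein (fitted 8.83-fold, adjusted p = 0.0146). Over the alternatives the lowest fitted differences were 1.27 for Tnfsf11, 1.22 for Sult1a1, 1.05 for Col11a1 and 0.85 for Psg22, each where a constant was added to the signal. In all, 17 of the 373 higher genes were not well above background on any NT array. For such genes the size of the change rests on NT values at background, and the folds given are not lower bounds.

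Trim63, a ubiquitin ligase that glucocorticoids raise in wasting muscle, differed by 4.02, 1.67 and 2.95 at 6, 24 and 48 h (2.88 ± 0.51, adjusted p = 0.0146) and was above background on 1 of 3 NT arrays. Syn2, a synapsin, differed by 2.88 ± 0.43 (adjusted p = 0.00716) and was likewise above background on 1 of 3 NT arrays. A second Syn2 probe that passed the filter differed by 1.73 (adjusted p = 0.0738 over all probes). Aldh1a7, a close relative of the retinal dehydrogenase Aldh1a1, was at 8.55, 8.70 and 9.90 in CS cells, against 6.55, 6.28 and 5.79 in NT cells. The groups lay apart, and the pairs differed by 1.99, 2.42 and 4.11 (2.84 ± 0.41, adjusted p = 0.00661), and Aldh1a1 itself was called (2.30 ± 0.43, adjusted p = 0.0174). Phax, an adaptor for the export of small nuclear RNA, and Rint1, a protein of Golgi to endoplasmic reticulum transport, were also among the highest and are taken up with cortisol alone below.

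**Figure D3:**
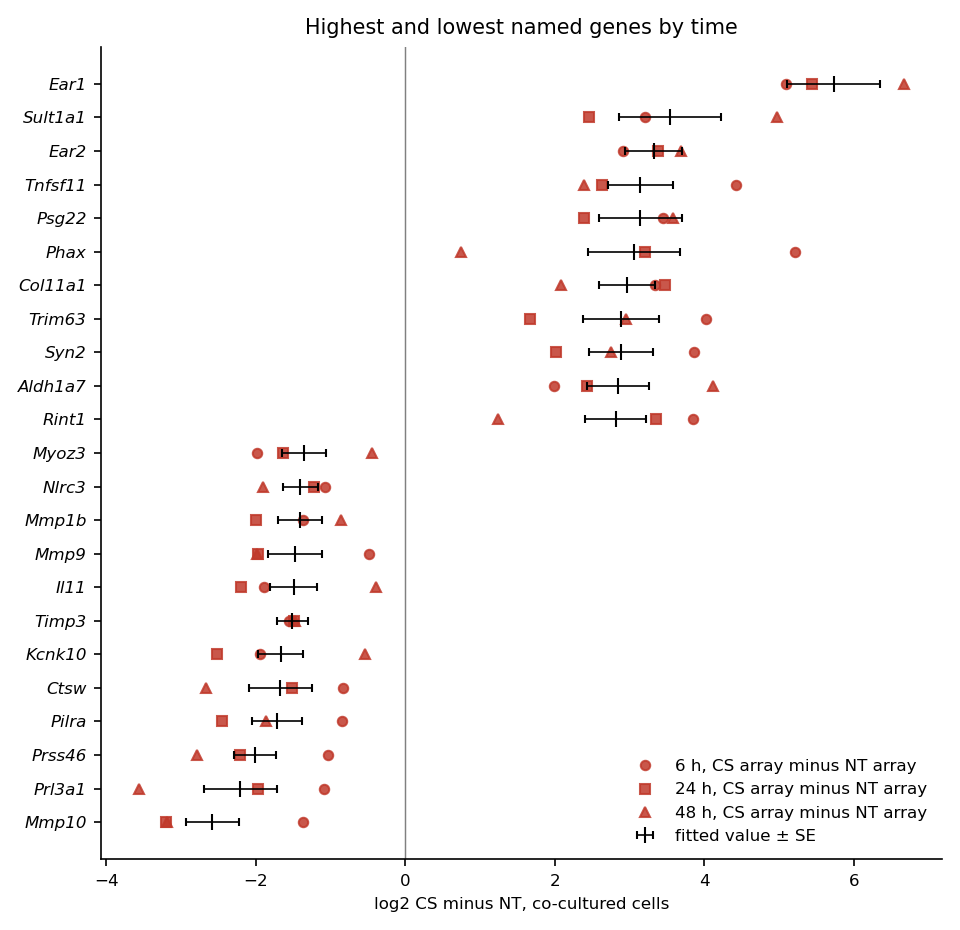
Log2 CS minus NT in co-cultured cells (x axis) for 11 of the 12 highest and for the 12 lowest called genes (rows), with 1 red symbol for each time and the fitted value ± SE in black. Timp3 differs by nearly the same amount at each time (-1.56, -1.49 and -1.48), Mmp10 less at 6 h (-1.37) than at 24 h (-3.20), and Phax most at 6 h (5.21).

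The Serpina3 genes, which encode acute phase serine protease inhibitors and lie together on chromosome 12, were looked at after their values had been seen. Of 8 measured members 6 were called, all higher, and 2 were not, with a median of 2.21, where 2.72% of all genes were called higher. As the family was picked for its values, this count is a description. Serpina3n was at 10.38, 10.94 and 11.44 in CS cells and 9.53, 8.80 and 7.49 in NT cells. The CS level was higher and the NT level lower at each later time, with differences of 0.85, 2.14 and 3.95 (fitted 2.31 ± 0.54, adjusted p = 0.0362). Serpina3m (0.78, 2.79 and 4.82) and Serpina3c (1.61, 2.31 and 3.74) also differed more at the later times, whereas Serpina3i differed by 1.63, 1.43 and 1.07 (1.38 ± 0.13, adjusted p = 0.00237). These genes are close copies, so that 1 transcript may reach several probes.

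Among the inflammatory genes more fell than rose. Of 31 measured members of the NF-κB and inflammatory mediator list 5 were lower and 1 was higher (19.4% called, against 3.7% of all genes, of which 0.977% were called lower), with a median of -0.21. The lowest member was Mmp10, which is described with the metalloproteinases below. Acod1, the enzyme that makes itaconate in activated macrophages, was at 11.85, 11.88 and 11.84 in CS cells, against 12.88, 13.12 and 13.05 in NT cells. The groups lay apart with little spread within either (-1.16 ± 0.11, adjusted p = 0.00237). The 18 measured macrophage markers had a median difference of -0.11, and their part in this was not tested. Il13ra2, a decoy receptor for interleukin 13, was at 13.18, 13.04 and 13.01 in CS cells, against 13.72, 14.05 and 14.41 in NT cells (-0.98 ± 0.18, adjusted p = 0.0151). Cfb, complement factor B, was at 11.41, 10.73 and 10.64 in CS cells, against 11.68, 11.76 and 11.64 in NT cells, and the pair at 6 h lay closest (-0.77 ± 0.18, adjusted p = 0.0383). The exception was Nfkbie, an inhibitor of NF-κB, which rose by 1.33 ± 0.23 (adjusted p = 0.0146), while Nfkbia, another such inhibitor, which stands on the glucocorticoid-induced list, differed by -0.04 (adjusted p = 0.832). The list median was 0.10 under median centring, where the median of all genes was 0.26 and 1 member was called lower. Without the CS array at 24 h, or without the NT array at 24 h, 2 members were called lower, without the CS array at 48 h 3, and without the 3 arrays of doubtful label 1.

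Of the 33 measured members of the list of cytokines and chemokines 4 were lower and none was higher (against 0.977% and 2.72% of all genes), with a median of -0.07, near the -0.02 of all genes. Il6 was at 12.92, 13.06 and 12.72 in CS cells and 13.71, 14.09 and 13.27 in NT cells. All CS values were below all NT values (-0.79 ± 0.18, adjusted p = 0.0366). Csf2, the granulocyte-macrophage colony-stimulating factor, had 9.37, 10.70 and 9.00 in CS cells, against 10.26, 12.64 and 10.15 in NT cells. Both groups peaked at 24 h, CS was lower at each time, and the difference was -1.33 ± 0.28 (adjusted p = 0.0277). Il11, a cytokine of the interleukin 6 family, differed by -1.89, -2.19 and -0.40 (-1.49 ± 0.32, adjusted p = 0.0264), and Ccl5, a T cell attractant, by -0.44, -0.81 and -0.51 (-0.59 ± 0.10, adjusted p = 0.0147). Ccl2, which attracts monocytes, had a difference of 0.10 ± 0.07 (adjusted p = 0.429). Chemokines off the list, named here after their values had been seen, went both ways. Cxcl13, a B cell attractant, was at 4.31, 5.12 and 5.56 in CS cells and 2.56, 2.59 and 2.93 in NT cells. It was well above background on no NT array (fitted 4.94-fold higher, adjusted p = 0.0146). Ccl17 (-0.72 ± 0.18, adjusted p = 0.047) and Cxcl16 (-1.07 ± 0.24, adjusted p = 0.033) were lower, while Tnfsf11, described above and also off the list, was higher. The list median turned to 0.05 under median centring, where 1 member was called lower and 2 higher. Without the CS array at 24 h, the NT array at 24 h or the 3 arrays of doubtful label no member of this list was called. Without the NT array at 6 h or the CS array at 48 h 1 was called lower, and without the CS array at 6 h 1 was called lower and 2 higher. The 33 measured interferon-stimulated genes held no call, with a median of -0.17.

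Mmp10, stromelysin 2, was the lowest of all named genes, with 11.59, 8.48 and 7.10 in CS cells, against 12.95, 11.68 and 10.28 in NT cells. Both groups declined over time, and the CS value was below the NT value by 1.37 at 6 h and by over 3 units later (fitted -2.58 ± 0.35, adjusted p = 0.00556), a 6.00-fold fall. Mmp9, gelatinase B, differed by -0.48, -1.97 and -1.98 (-1.48 ± 0.36, adjusted p = 0.0433), and Mmp1b, a collagenase relative, by -1.37, -1.99 and -0.86 (-1.41 ± 0.29, adjusted p = 0.0251). The other 10 of 13 measured metalloproteinase genes were not called, Mmp3 among them (-0.43 ± 0.18, adjusted p = 0.183). The family, looked at after its values had been seen, thus had 3 of 13 called lower, against 0.977% of all genes. This count is not separate from that of the inflammatory mediator list, which also holds Mmp10. Timp3, an inhibitor of these enzymes, was also lower, at 9.83, 11.00 and 11.13 in CS cells, against 11.39, 12.49 and 12.61 in NT cells. The pairs differed by -1.56, -1.49 and -1.48 (fitted -1.51 ± 0.20, adjusted p = 0.0051), whereas Timp1 (-0.15) and Timp2 (0.17) were not called.

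The letters TGANTCA, which AP-1 binds and which also read the same on either strand, were in 21 of 125 promoters of the lower genes (16.8%, 20 genes) and 28 of 372 of the higher genes (7.53%), against 5.84% for all tested genes and 7.81% of all promoters. The promoters of Mmp10, Mmp1b and Il11 are shown in the same way with these letters in capitals, since these genes were among the 12 lowest. The match begins 63 bases before the start site in Mmp10 (chr9:7502092-7502391, plus strand), 93 bases before it in Mmp1b (chr9:7387977-7388276, minus strand) and 98 bases before it in Il11 (chr7:4778092-4778391, minus strand, 1 of 2 promoters given for the gene). Nfkbie and Klf9, which were higher, also have a match, 156 and 89 bases before their start sites.
Mmp10: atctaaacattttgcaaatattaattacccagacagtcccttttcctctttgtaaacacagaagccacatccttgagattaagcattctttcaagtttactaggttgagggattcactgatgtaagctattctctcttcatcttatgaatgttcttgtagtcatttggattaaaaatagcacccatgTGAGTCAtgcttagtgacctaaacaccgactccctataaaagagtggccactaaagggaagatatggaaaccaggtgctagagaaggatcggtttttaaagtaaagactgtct
Mmp1b: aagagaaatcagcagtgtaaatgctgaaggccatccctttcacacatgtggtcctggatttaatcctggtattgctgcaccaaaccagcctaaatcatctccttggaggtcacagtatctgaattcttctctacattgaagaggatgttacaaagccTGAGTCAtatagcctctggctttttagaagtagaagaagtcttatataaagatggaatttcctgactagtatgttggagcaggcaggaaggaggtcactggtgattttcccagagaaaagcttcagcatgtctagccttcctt
Il11: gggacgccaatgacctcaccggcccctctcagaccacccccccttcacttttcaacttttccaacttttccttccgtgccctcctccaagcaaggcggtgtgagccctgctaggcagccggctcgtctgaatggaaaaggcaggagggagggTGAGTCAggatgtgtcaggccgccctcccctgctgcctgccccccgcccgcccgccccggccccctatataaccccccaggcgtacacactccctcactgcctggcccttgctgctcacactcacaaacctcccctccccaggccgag

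The rest of the 12 lowest genes were Prl3a1, a prolactin relative (-2.21 ± 0.49), Prss46, a serine protease (-2.01 ± 0.28), Pilra, an inhibitory immune receptor (-1.72 ± 0.33), Ctsw, a cathepsin (-1.67 ± 0.42), Kcnk10, a potassium channel (-1.67 ± 0.30), Nlrc3, a negative regulator of innate signalling (-1.40 ± 0.24), and Myoz3, a protein of the muscle Z disc (-1.36 ± 0.29), with adjusted p between 0.00616 for Prss46 and 0.0455 for Ctsw. A second Myoz3 probe that passed the filter pointed the other way (1.16, adjusted p = 0.339 over all probes). These genes too were chosen for their size and for the same direction at all times, which favours groups that lie apart. As a description, in 8 of the 12 the CS and NT values did not overlap over the 3 times. Of all genes 3.54% had every CS value below every NT value.

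**Figure D4:**
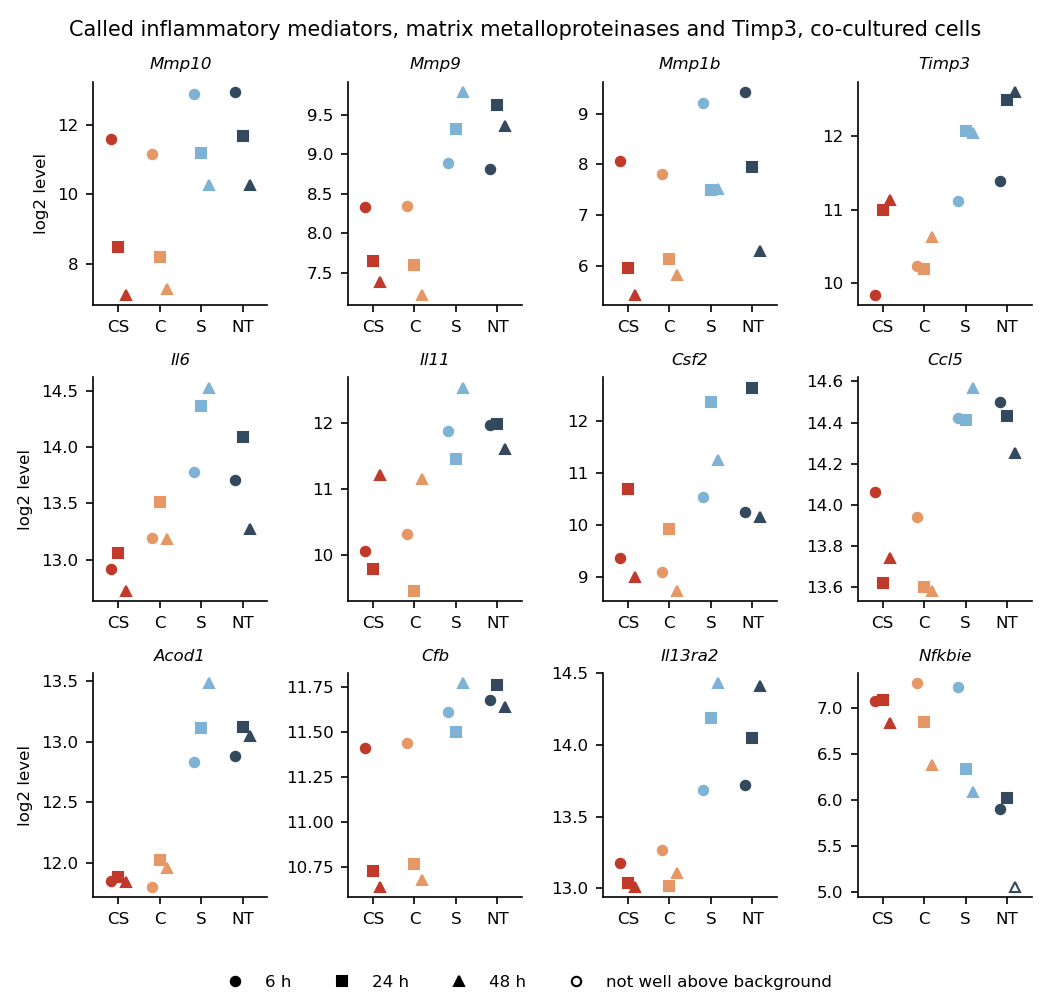
Log2 level (y axis) on each array of co-cultured cells by treatment (x axis) for called inflammatory mediators and cytokines, 3 metalloproteinases and Timp3, with 1 point per array, the time given by its shape and open points not well above background. For Acod1 the CS arrays (11.84 to 11.88) and the C arrays lie below the S and NT arrays (NT 12.88 to 13.12) at every time, while Mmp10 on the CS arrays declines between 6 h (11.59) and 48 h (7.10).

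Of 36 measured collagens and matrix genes 3 were higher (Col11a1, Col18a1 and Postn) and 2 were lower (Timp3 and Loxl2), 13.9% called against 3.7% of all genes, with a median of 0.12. Postn, periostin, had 10.07, 10.51 and 10.66 in CS cells and 9.05, 9.23 and 9.45 in NT cells (1.17 ± 0.12, adjusted p = 0.00277). Its groups did not overlap. Loxl2, a collagen crosslinking enzyme, differed by -1.33, -0.50 and -1.95 (-1.26 ± 0.24, adjusted p = 0.0175).

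For the adipose genes the question was whether the hormones moved the co-cultured cells towards fat cells. Of 31 measured adipogenic factors and adipocyte genes 1 was called (3.23%, against 3.7% of all genes), with a median of 0.00. That gene was Fabp4, a fatty acid carrier of adipocytes also called aP2, with 14.66, 15.16 and 14.76 in CS cells, against 14.27, 14.11 and 13.83 in NT cells. The groups did not overlap (0.79 ± 0.13, adjusted p = 0.0103). Pparg, the master regulator of adipogenesis, stood at 11.69, 11.93 and 12.19 in CS cells and 11.93, 11.87 and 11.78 in NT cells, lower at 6 h and higher at 48 h (0.08 ± 0.12, adjusted p = 0.73). Lpl, lipoprotein lipase (-0.12 ± 0.07, adjusted p = 0.334), Cebpb (-0.02 ± 0.10, adjusted p = 0.912), Apoe (0.01 ± 0.16, adjusted p = 0.988), the fatty acid transporter Slc27a3 (-0.35 ± 0.14, adjusted p = 0.152) and the glucose transporter Slc2a1 (0.05 ± 0.11, adjusted p = 0.824) were not called. Olr1, a receptor for oxidised lipoprotein, was higher only in the pair at 6 h (1.66, against -0.17 and -0.26 later, adjusted p = 0.465). None of Ptgs2, Csf3, Fos, Jun and Ccl4 was called either, with values between -0.78 for Ccl4 and 0.11 for Csf3. Adipoq and Aqp7 did not pass the filter on dim probes.

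Smaller numbers came from the remaining lists, to be read against the 3.7% of all genes called. The share called was 11.5% of the NRF2, glutathione and metallothionein list, 5.88% of clock genes and 4.35% of immediate early genes. It was near that of all genes for stress response (3.7%), hypoxia and glycolysis (3.57%) and cell cycle genes (3.23%). Nqo1, a quinone reductase, was lower (-0.88 ± 0.17, adjusted p = 0.021), as was the glutathione transferase Gsta3 (-0.64 ± 0.15, adjusted p = 0.0334), while the zinc transporter Slc39a14 was higher (0.72 ± 0.13, adjusted p = 0.0147), 3 of 26 measured NRF2, glutathione and metallothionein genes. Ciart, a repressor of the circadian clock, was higher by 2.08, 1.71 and 0.91 (1.56 ± 0.28, adjusted p = 0.0147), 1 of 17 clock genes. Single called members were Vldlr, a lipoprotein receptor, among 27 stress response genes, P4ha2, a collagen prolyl hydroxylase, among 28 hypoxia and glycolysis genes, and Mcm2, a replication helicase subunit whose probe gave no value on the CS array at 24 h, among 31 cell cycle genes, all higher. The 23 immediate early genes held 1 call, Dusp1, which is also on the glucocorticoid list. Lipid and cholesterol synthesis (31 measured), contractile genes (15, median -0.32) and housekeeping genes (14) held no call.

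For serotonin, 11 of 24 listed genes of its receptors, transport and breakdown were measured. Of these 1 was called (9.09%, against 3.7% of all genes). It was the sulfotransferase Sult1a1 that also stands on the glucocorticoid list, which left no called receptor or transporter. Maoa, the monoamine oxidase that breaks down serotonin, had 12.01, 11.80 and 11.37 in CS cells and 12.38, 12.12 and 12.10 in NT cells. It passed the test but stayed under 1.5-fold (-0.47 ± 0.10, adjusted p = 0.0281). The receptor genes Htr2a (-0.53, adjusted p = 0.192) and Htr2b (-0.98, adjusted p = 0.542) and the transporter Slc6a4 (0.66, adjusted p = 0.524) were not called.

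Macrophage markers were checked because Raw264.7 cells shared the wells. Of 29 listed markers 18 were measured, and 14 of the 29 were well above background on all CS and NT arrays. Of the 18, 1 was higher (Arhgdib, 0.82 ± 0.09) and 1 was lower (Csf1r, -0.75 ± 0.13), 11.1% called against 3.7% of all genes. The log2 of the summed level of the 18 markers was 14.35 to 14.48 on the CS arrays and 14.18 to 14.28 on the NT arrays in co-cultured cells. In cells alone, kept without macrophages, it was 14.08 to 14.49 on the CS arrays and 13.81 to 14.33 on the NT arrays, and the part of these markers in the results was not tested. Such a sum leans on the brightest marker, which was Arhgdib (mean 13.43 on CS and 12.61 on NT arrays of co-cultured cells). The median difference of the 18 markers was -0.11, so that the higher sum on CS arrays does not stand for the list. Csf1r, Itgam, Cd14, Aif1, Mpeg1 and Clec4d were well above background on all 12 arrays in co-cultured cells and in cells alone, whereas Ptprc, Spi1, Laptm5, Fcgr1 and C1qa were not well above background on any CS or NT array of co-cultured cells. In such bulk RNA, fewer cells of a type and less RNA per cell cannot be told apart.

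To see what serotonin added, CS cells were compared with cells given cortisol alone. No gene was called among 13721 (0%), with 704 at an unadjusted p under 0.05 (5.13%), and the smallest adjusted p was 0.0569. The glucocorticoid-induced genes had a median of 0.02 for CS minus C, and the values of its 12 called members ran between -0.35 ± 0.18 for Glul (adjusted p = 0.94) and 0.36 ± 0.10 for Fkbp5 (adjusted p = 0.889), with Zbtb16 at 0.13 ± 0.25 (adjusted p = 1). Their differences from NT, which share the NT arrays, had list medians of 0.70 for CS and 0.55 for C. Mmp10 (0.17 ± 0.35), Acod1 (-0.07 ± 0.11) and Timp3 (0.31 ± 0.20) were not called either, and Il6 was at -0.39 ± 0.18 (adjusted p = 0.94).

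The gene with the smallest p was Ccl3, a macrophage attractant, named here after its values had been seen. Ccl3 was at 11.32, 11.20 and 11.34 in CS cells, 8.24, 8.57 and 8.82 in C cells and 10.80, 10.98 and 11.44 in NT cells. The C arrays were thus low, while CS and NT arrays overlapped (CS minus C 2.75 ± 0.30, adjusted p = 0.0569, against CS minus NT 0.21 ± 0.30, adjusted p = 0.701). In cells alone on the same arrays Ccl3 was at 9.78 and 11.87 on the arrays labelled CS at 6 and 24 h, with no value at 48 h, against 6.65, 7.16 and 7.41 on the C arrays. It was called under 7 of the alternatives, among them with an adjusted p of 0.0284 under scaling to the 75th percentile and of 0.0199 without the CS array at 48 h.

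Rint1 and Phax, 2 of the 12 highest genes over NT, had the largest CS minus C values of those 12, and neither was called. Rint1 had 10.82, 10.57 and 10.36 in CS cells, 7.78, 8.46 and 8.32 in C cells and 6.97, 7.22 and 9.12 in NT cells. All CS values were above all others, and CS minus C was 2.40 ± 0.41 (adjusted p = 0.236). The green channel of the same arrays gave nearly the same levels for cells alone, at 10.92, 10.50 and 10.68 on the arrays labelled CS, 8.20, 8.48 and 8.89 on C and 7.13, 7.26 and 9.39 on NT. This held at 24 h too, where the cells alone labelled CS lacked the Zbtb16 response (8.40). For Phax the CS minus C values were 3.30, 2.16 and 1.35 in co-cultured cells and 3.00, 1.93 and 1.57 in cells alone (CS minus C 2.27 ± 0.61 in co-cultured cells, adjusted p = 0.878). The CS samples always lay at position 4 of the slide, and serotonin with cortisol and that position cannot be told apart for these genes.

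**Figure D5:**
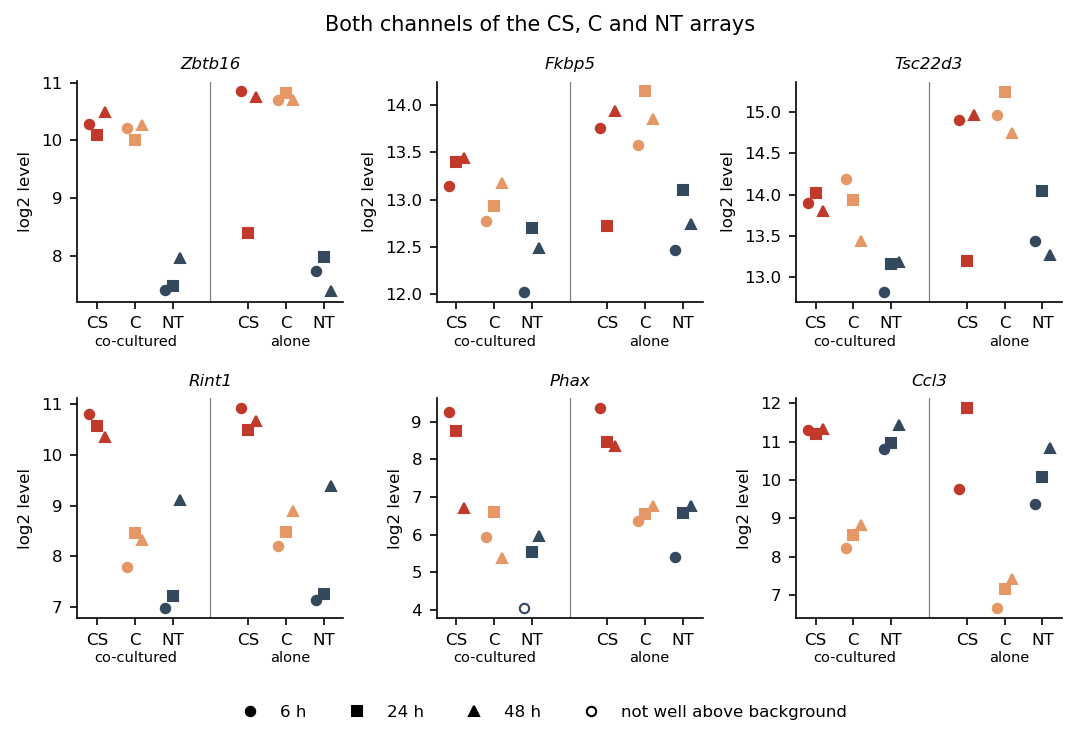
Log2 level (y axis) of 6 genes in co-cultured cells (left of each panel) and in cells alone (right) on the same CS, C and NT arrays (x axis), with the time given by the shape. Zbtb16, Fkbp5 and Tsc22d3 are near or below the NT levels in the cells alone labelled CS at 24 h (Zbtb16 8.40), while Rint1 is high on all CS arrays in both channels (10.36 to 10.92), and Ccl3 is low on the C arrays.

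Whether the response of co-cultured cells differed from that of cells alone was tested as the difference of the channels within each array. No gene was called among 13719 (0%), with 1191 at an unadjusted p under 0.05 (8.68%), and the smallest adjusted p was 0.148. The count was also 0 without the CS array at 24 h (1260 at an unadjusted p under 0.05) and without the 3 arrays of doubtful label (943), so that no difference was detectable, which does not show that the responses were alike. Of the 373 genes higher in co-cultured cells 272 (72.9%) were at least 1.5-fold higher in cells alone on the same arrays, and of the 134 lower genes 71 (53%) were at least 1.5-fold lower, against 9.11% and 5.42% of all genes. The values in cells alone were fitted over all 3 times, with the arrays of doubtful label included, and both channels share each slide position. For Zbtb16 the difference from NT in cells alone was 3.12 at 6 h, 0.42 at 24 h and 3.37 at 48 h, and for Fabp4 it was -0.05, -0.77 and 0.70, against 0.39, 1.05 and 0.92 in co-cultured cells (adjusted p of the difference 0.522). The 12 called glucocorticoid-induced genes had a median of 1.40, 0.04 and 1.59 in the cells alone labelled CS, and of 1.07, 1.17 and 1.01 in the co-cultured cells of those arrays.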

How the data were processed

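Total RNA of 3T3L-1 cells was hybridised to 12 two-colour Agilent mouse arrays. The authors extracted the intensity signals with Agilent Feature Extraction (version 10.7.3.1 per the file headers, 10.5.1.1 in the submitters' processing notes), which subtracts background and normalises red to green on each array. The deposited log10 ratios of red to green were not used. No dyes were swapped. A deposited table of the authors' processed values was not used.

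Red processed signals were taken to log2 and quantile normalised over the 12 arrays, leaving out control spots and outlier spots. Probes well above background on at least 3 arrays were kept (22700 of 39429), 27508 probes were named by accession through RefSeq, and each gene was represented by its brightest probe. limma 3.58.1 in R 4.3.3 fitted treatment and time (lmFit and eBayes with trend, 6 residual degrees of freedom). P-values rest on the departure of the arrays from an additive effect of time and treatment. That departure may be technical, and it also holds any change of the treatment effect between the times. The number of arrays limits the precision. On simulated data of 13210 genes, 76% of changes of 1 log2 unit and 96% of changes of 3 units were called for CS over NT. Each share came from 50 genes, and there were 6 false calls in all. The simulated errors were independent, normal and of each gene's fitted spread, with no effect of slide position. These rates therefore need not hold for the arrays themselves. The members and the gene lists were chosen with earlier results of these data known.

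Genes were named by rule: the 12 highest and 12 lowest called genes with 1 direction at all times, leaving out clone names, receptors of smell and genes dim in both groups; called members of lists, at most 6 a list; and genes the study discusses. Further called members of the glucocorticoid-induced list, members that were not called, and gene families were named after their values were seen. Of the 12 highest, 11 are described and the other is not reported here. Alternatives covered normalisation, background correction, filters, probes, thresholds, the model and each array left out. Only the design with time as a block pairs the arrays. Files were read with the data.table package (version 1.17.8), and figures drawn with matplotlib 3.10.9.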

Additional observations from a re-analysis of the deposited data

How the results depend on the processing

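The alternatives below were run on the 3 counts of called genes and on the named genes. With 1 value a gene, none of the 70 called genes that are named or listed reversed its direction. With every probe, the second probe of Myoz3 pointed the other way (1.16, adjusted p = 0.339, not called). The 507 genes called for CS over NT became 241 with no filter on dim probes, 917 for every probe passing the filter, 866 with no fold threshold and 208 at 2-fold. They became 8 with only the 6 CS and NT arrays, 7 without the 3 arrays of doubtful label and 155 without the 4 arrays at 6 h, fits with fewer arrays and fewer degrees of freedom. The last was added after the data had been seen, as was correction by normexp without dye normalisation (551). With no replicate block, that is without pairing by time, 3 genes were called. Leaving out 1 CS or NT array at a time gave 162 to 736 called genes, of which at least 153 were among the 507. Under median centring 459 genes were called, 93.2% of them higher, against 73.6% in the main setting, and the median of all genes shifted to 0.26, against -0.02. For CS over C, where no gene was called, scaling to the 75th percentile gave 1 gene (Ccl3), median centring 6, the filter on all 12 arrays 1, leaving out the 3 arrays of doubtful label 1, arrayWeights 4 and every probe 2, and leaving out 1 array gave 0 to 7, with 7 without the CS array at 48 h and 1 without the NT array at 48 h. The fit with only CS and NT arrays could give no value for CS over C. For the difference between co-cultured cells and cells alone every alternative gave 0. Dim genes limit the folds: 17 higher genes were not well above background in NT cells.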
